A study of Mus musculus with 112 samples.

Results

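Sperm DNA methylation (DNAme) was compared between male mice that had been exposed to cigarette smoke (CS) and then kept without it until the second recovery time point (recovery 2, n = 10) and males that were never exposed (control WT, n = 10). All libraries of both groups were used, which makes 20 of the 112 libraries of the series and 20 of its 67 libraries of F0 sperm. Both groups are C57BL/6J wild type (WT) males, carry no targeted allele, and differ by their labels in smoke exposure and in the time point. The 5 other groups of F0 sperm are smoked WT, recovery 1, recovery 3, and control (n = 10) and smoked (n = 9) males without Nrf2 (Nrf2-/-). They enter the choice of cytosines, the fit and the classes of DNAme level. They also enter the adjustment of a region value where a library lacks some of the region's cytosines. Their libraries are in neither mean of the comparison. CS came from research cigarettes burned in a smoking machine, and exposure began in age-matched young adults. Sperm came from the epididymal cauda and the vas deferens by swim-out, with somatic cells lysed, and each library is 1 animal. The design text gives 28 to 171 days after exposure for the 3 recovery groups together, and the labels give no interval for recovery 2 alone. By the study's methods, recovery 2 was the middle one of the 3 collections after exposure. By the study's methods, the control males were collected at about the end of the exposure period, so recovery 2 males were older and were collected later. Past exposure, age and date of collection therefore cannot be told apart in this comparison.

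DNAme is the addition of a methyl group to cytosine, in mammals mostly at CpG dinucleotides. It is laid down afresh in the male germ line before birth and then copied by maintenance methyltransferases as spermatogonial stem cells divide throughout adult life. In mature sperm most CpG sites in introns and between genes are highly methylated, CpG-dense promoters are nearly free of methylation, and imprinting control regions carry the paternal pattern. A sample of sperm taken after several cycles of spermatogenesis descends from stem cells that were present during exposure, while the sperm cells themselves were formed later.

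The assay was reduced representation bisulfite sequencing (RRBS). DNA is cut at CCGG by MspI and at TCGA by TaqαI, and bisulfite then turns unmethylated cytosine into uracil. A value is the percent of reads that kept their cytosine at a position. Neighbouring cytosines with a value in at least 4 libraries of each of the 7 F0 sperm groups were joined into 62831 regions. Of these, 4 passed the test between recovery 2 and control WT (limma, adjusted p below 0.05), which is 0.00637% of the regions tested, and all 4 were lower in recovery 2. None of the 4 lay within 1 kb of an annotated start. Their sequences are printed here because the results turn on them, read from the GRCm38 genome on the plus strand, with 1 base added at either end so that the restriction sites are whole. Capitals mark the CpG sites that were measured. The Gm44220 sequence is at chr6:93274287-93274356, the Barhl2 sequence at chr5:106431480-106431590, the Adgrl2 sequence at chr3:148980249-148980389 and the Dnah6 sequence at chr6:73060182-73060284.
Gm44220: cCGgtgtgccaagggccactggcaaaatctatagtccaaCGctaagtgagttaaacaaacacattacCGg
Barhl2: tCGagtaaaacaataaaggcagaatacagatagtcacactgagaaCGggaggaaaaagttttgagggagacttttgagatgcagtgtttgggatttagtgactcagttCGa
Adgrl2: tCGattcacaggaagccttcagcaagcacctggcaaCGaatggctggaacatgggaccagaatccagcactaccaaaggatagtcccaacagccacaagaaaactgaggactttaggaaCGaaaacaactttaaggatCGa
Dnah6: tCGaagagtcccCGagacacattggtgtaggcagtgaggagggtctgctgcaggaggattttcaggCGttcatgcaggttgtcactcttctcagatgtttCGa
The Gm44220 sequence begins and ends with CCGG, and the other 3 begin and end with TCGA, so that each is the insert between 2 cut sites. They hold 3 or 4 CpG sites each, all of which were measured.

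The libraries themselves were compared first. Mean DNAme over scoreable cytosines ranged from 33.02% through 36.04% to 40.8% in control WT and from 32.2% through 35.2% to 36.6% in recovery 2. The means of 36.04% ± 2.31 (n = 10) and 35.1% ± 1.32 (n = 10) differed by -0.981 points, within the spread between libraries (permutation p = 0.268, two-sided, 100000 resamples), and 8 of 10 recovery 2 libraries lay below the control mean. Over the 477179 cytosines with a value in all 20 libraries the difference was -0.149 points (permutation p = 0.643). Control libraries 5 and 8 and recovery 2 libraries 6 and 8, numbered by their place in the group's table, stood apart in cytosines that were 75% to 95% methylated in the other groups. They had 83.4%, 84.2%, 86.3% and 83.7% there, and all other libraries of both groups had 89.5% to 92.7%. Control library 1 stood apart at the other end. Its mean over cytosines below 5% was 1.89%, against 0.554% to 1.25% in the other control libraries and 0.549% to 1.16% in recovery 2. The number of positions with a value, which stands in for depth since no read counts were given, ranged from 800605 to 1673297 in control WT and from 1139964 to 1509064 in recovery 2.

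The libraries were checked for marks of sperm. The list of genes with maternal imprints had 40 regions within 1 kb of a start. Their median DNAme ranged from 0.219% to 2.19% in control WT and from 0.462% to 1.17% in recovery 2. A paternal genome should have low values where such a gene carries its imprint, and 36 of the 40 regions were below 5% in control WT. The regions were taken by distance from a start, and how many of them carry an imprint was not tested. Their low median therefore cannot by itself tell sperm from somatic cells. Over 39 regions at germline gene promoters the median ranged from 0.535% to 2.21% and from 0.739% to 2.47%, and 31 of the 39 were below 5% in control WT. The single region in the window upstream of Rasgrf1, which is methylated on the paternal allele, averaged 82.9% ± 5.04 (n = 10) in control WT against 80.6% ± 3.97 (n = 10) in recovery 2. That is short of the nearly full methylation that was looked for there. The windows upstream of H19 and Meg3 held 0 regions.

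**Figure D1:**
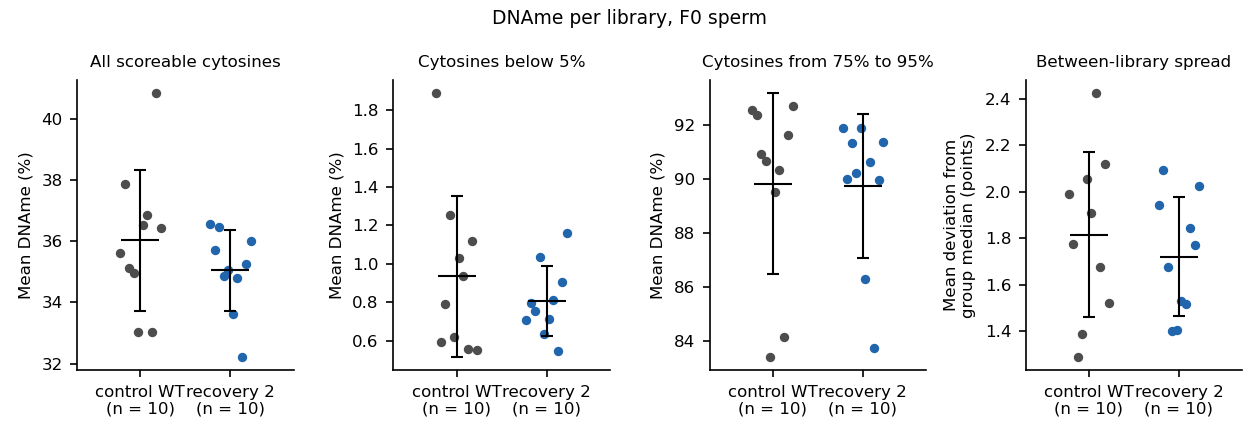
Values per library in control WT (grey) and recovery 2 (blue): mean DNAme (%) over all scoreable cytosines, over cytosines below 5% and over cytosines from 75% to 95% in the 5 other F0 groups, and the mean deviation of a library's regions from its group's median (percentage points). Points are libraries, bars are means with whiskers of 1 SD (n = 10 each), and the axes do not start at 0. The low points at 75% to 95% are control libraries 5 and 8 (83.4% and 84.2%) and recovery 2 libraries 6 and 8 (86.3% and 83.7%), and the high point below 5% is control library 1 (1.89%).

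The largest difference among the 4 was in an intergenic region on chromosome 6. The region chr6:93274288-93274355 lies 32568 bp from the nearest annotated start, that of the predicted gene Gm44220, and 330796 bp from the nearest start of a protein-coding gene, Adamts9, a secreted metalloprotease of the extracellular matrix. In control WT the 10 libraries ranged from 54.96% through a median of 66.9% to 71.2%, and in recovery 2 from 34.2% through a median of 40.2% to 47.8%. The highest recovery 2 library was thus below the lowest control library. Mean DNAme was 65.9% ± 4.66 (SD, n = 10) in control WT and 40.5% ± 5.43 (n = 10) in recovery 2. The difference was -25.3 percentage points (SE 2.91, limma adjusted p = 1.62e-07), and the region stayed past the threshold in each of the 35 other settings tried for it, with adjusted p values up to 3.09e-05. Among the 57751 regions with a value in at least 8 libraries of each group, it was the only one in which no recovery 2 library overlapped the control libraries from below (0.00173%), and in 0 regions did all recovery 2 libraries lie above all controls.

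All 4 cytosines of the Gm44220 region had lower means in recovery 2. The cytosine of the first CCGG averaged 43.2% ± 11.04 (n = 10) in control WT against 13.5% ± 7.19 (n = 10) in recovery 2. The cytosines on both strands of the middle CpG had 73.4% ± 9.55 and 74.9% ± 8.45 in control WT against 54.3% ± 8.26 and 52.2% ± 6.47 in recovery 2. The cytosine of the last CCGG went from 71.99% ± 7.13 to 42.2% ± 8.72. Beyond the region the differences were smaller, though all in the same direction. How far the difference extends cannot be seen, since no scoreable cytosine lay close by. The 8 scoreable cytosines outside the region but within 10 kb, of which the nearest was 4328.5 bp from the region's centre, differed by -7.10 to -0.257 points, and 1 of them had an unadjusted p below 0.05. The neighbouring region at chr6:93269753-93269830 had a mean of 94.4% in control WT and 92.2% in recovery 2 (unadjusted p = 0.16, limma).

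The region named for Barhl2, a homeobox transcription factor of the developing nervous system, was intergenic at chr5:106431481-106431589, 26577 bp from the gene's start. Control WT libraries ranged from 15.02% through 19.3% to 25.03% and recovery 2 libraries from 5.002% through 11.2% to 16.7%. A single recovery 2 library lay inside the control range and the other 9 below it. The means were 19.2% ± 3.02 (n = 10) and 10.7% ± 3.12 (n = 10), a difference of -8.51 points (SE 1.45, limma adjusted p = 0.00597). Its 3 CpG sites went from 21.1% to 14.8%, from 14.2% to 8.36% and from 22.3% to 8.83%. The 12 scoreable cytosines around it within 10 kb differed by -6.39 to 2.46 points, with 0 of them under an unadjusted p of 0.05 (limma). Of the 34 other settings tried for it, the call was lost in 2, when only control WT and recovery 2 entered the fit (adjusted p = 0.057) and with a block by facility number in the 5 WT groups (adjusted p = 0.0601).

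An intron of Adgrl2, which encodes latrophilin 2, an adhesion receptor of synapses and vessels, held the next region, at chr3:148980250-148980388. Control WT libraries ranged from 41.1% through 44.9% to 51.1% and recovery 2 libraries from 32.5% through 37.4% to 45.5%, with 9 of 10 recovery 2 libraries below every control. Mean DNAme was 45.6% ± 3.37 (n = 10) in control WT and 37.9% ± 3.31 (n = 10) in recovery 2, and the difference was -7.67 points (SE 1.45, limma adjusted p = 0.0361). Its CpG sites fell into a lower pair, at 19.2% and 23.3% in control WT, and a higher pair, at 75.1% and 64.7%. The recovery 2 means of the 4 were 13.6%, 17.3%, 68.5% and 52.3%. A CpG-dense stretch starts 6360 bp from the region's centre, and the regions there were nearly unmethylated in both groups, as in the region at chr3:148987738-148987952 with 0.887% in control WT and 0.797% in recovery 2.

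A coding exon of Dnah6 held the last of the 4, at chr6:73060183-73060283. Dnah6 encodes an axonemal dynein heavy chain, a motor protein of cilia and the sperm tail. Control WT libraries ranged from 85.2% through 90.8% to 92.3% and recovery 2 libraries from 82.1% through 84.9% to 89.1%, with 6 of 10 recovery 2 libraries below every control. Mean DNAme was 89.8% ± 2.42 (n = 10) in control WT and 85.1% ± 1.94 (n = 10) in recovery 2 (difference -4.71 points, SE 0.916, limma adjusted p = 0.0466). Its 4 CpG sites did not differ alike. The one at position 73060249 went from 80.4% ± 3.67 to 71.9% ± 3.61 (n = 10 each). The one in the TCGA site at position 73060283 had 93.8% ± 3.67 and 93.6% ± 2.68. The Adgrl2 and Dnah6 calls lay close to the threshold. Leaving out 1 library at a time kept the Adgrl2 call in 8 of 20 fits (adjusted p up to 0.153 without control library 9) and the Dnah6 call in 4 of 20 (up to 0.169 without control library 6). Of the 14 settings that changed the processing or the fit, 4 kept the Adgrl2 call and 5 the Dnah6 call, and both were lost in the fit of the 2 groups alone (adjusted p = 0.313 and 0.572). The first region outside the threshold had an adjusted p of 0.0978 and a change of -1.43 points, near the start of Arpc2, where control WT had a mean of 1.90%.

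**Figure D2:**
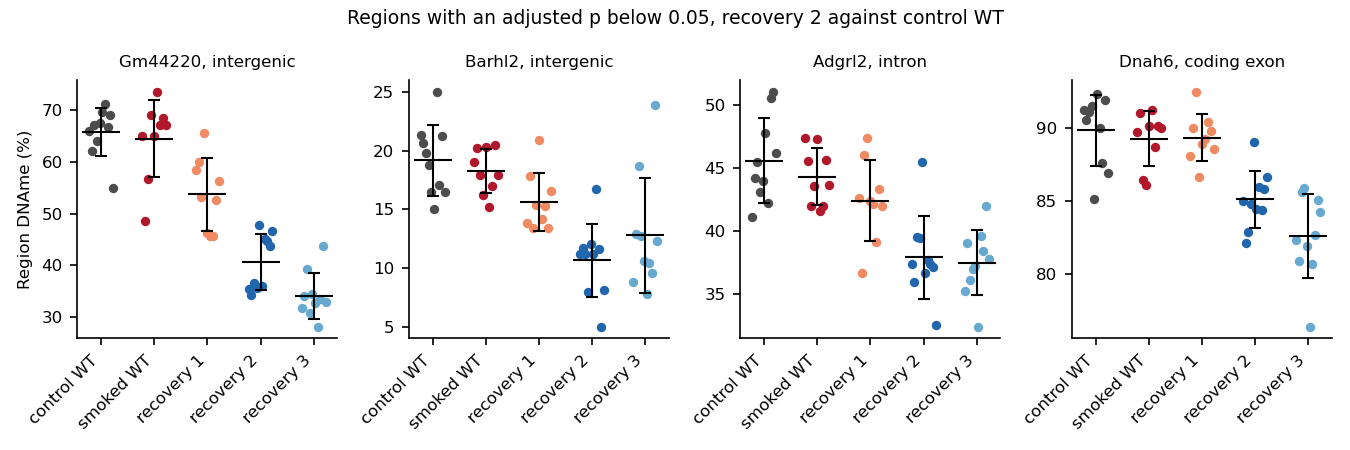
Region DNAme (%) in the 5 WT groups of F0 sperm for the 4 regions that passed the test, each panel with its own vertical scale that does not start at 0. Points are libraries, the long bar is the group mean and the whiskers are 1 SD (n = 10, 9, 9, 10 and 10). In the Gm44220 panel all recovery 2 points, at most 47.8%, lie below the lowest control point at 54.96%.

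The other 3 groups of exposed WT males give the order of levels at these regions. At Gm44220 the means were 64.5% ± 7.49 (n = 9) in smoked WT males, taken when exposure ended, 53.8% ± 7.06 (n = 9) in recovery 1, 40.5% in recovery 2 and 34.1% ± 4.43 (n = 10) in recovery 3. In the contrast with smoked WT the difference was -23.98 points (SE 2.99, limma adjusted p = 2.37e-06). Recovery 2 did not pass the test against recovery 1 (-13.2 points, SE 2.99, adjusted p = 0.782), and recovery 3 did not pass it against recovery 2 (-6.48 points, SE 2.91, adjusted p = 0.873). At Barhl2 the means were 18.3% ± 1.898 in smoked WT, 15.6% ± 2.49 in recovery 1, 10.7% in recovery 2 and 12.8% ± 4.94 in recovery 3, and recovery 2 against smoked WT gave -7.59 points (adjusted p = 0.075). At Adgrl2 they were 44.3% ± 2.26, 42.4% ± 3.22, 37.9% and 37.5% ± 2.60, and at Dnah6 89.3% ± 1.86, 89.4% ± 1.63, 85.1% and 82.6% ± 2.87, in the same order of groups. For these last regions recovery 2 did not pass the test against smoked WT (adjusted p = 0.503 and 0.429) or recovery 1 (0.933 and 0.782). Against recovery 1, 0 of 62831 regions passed, and 0.782 was the lowest adjusted p. The unadjusted p there (limma) was 4.07e-05 at Gm44220, 0.00146 at Barhl2, 0.00371 at Adgrl2 and 3.13e-05 at Dnah6. These regions were picked by their recovery 2 values, so such p values run low. The Nrf2-/- groups are not part of this order. Control Nrf2-/- (n = 10, never exposed) and smoked Nrf2-/- (n = 9) had 53.9% ± 9.22 and 53.3% ± 6.52 at Gm44220. At Barhl2 they had 18.1% and 19.2%, at Adgrl2 50.5% and 49.0%, and at Dnah6 86.6% and 87.6%. Along the WT groups age rises in the same order and cannot be told apart from the time since exposure.

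Against smoked WT, 2 regions in all passed the test (limma adjusted p below 0.05, 0.00318% of 62831), and 2201 met an unadjusted p below 0.05 (3.5%). The other region was an intron of Enpp4, an ectonucleotide pyrophosphatase, 264 bp from its start, at chr17:44105367-44105500. Its 5 cytosines had 2.797% ± 2.15 (n = 8) in smoked WT and 0.378% ± 0.483 (n = 10) in recovery 2, a difference of -2.42 points (SE 0.446, limma adjusted p = 0.0375). Smoked WT libraries ranged from 0.311% to 6.67%, recovery 2 libraries from 0 to 1.11%, and control WT libraries from 0 to 0.714% with a mean of 0.196% ± 0.239 (n = 10), so that recovery 2 and control WT overlapped. The difference between recovery 2 and control WT there was 0.183 points (SE 0.42, adjusted p = 1). The call against smoked WT held in 7 of the 20 other settings and was lost in the fit of these 2 groups alone (adjusted p = 0.985).

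**Figure D3:**
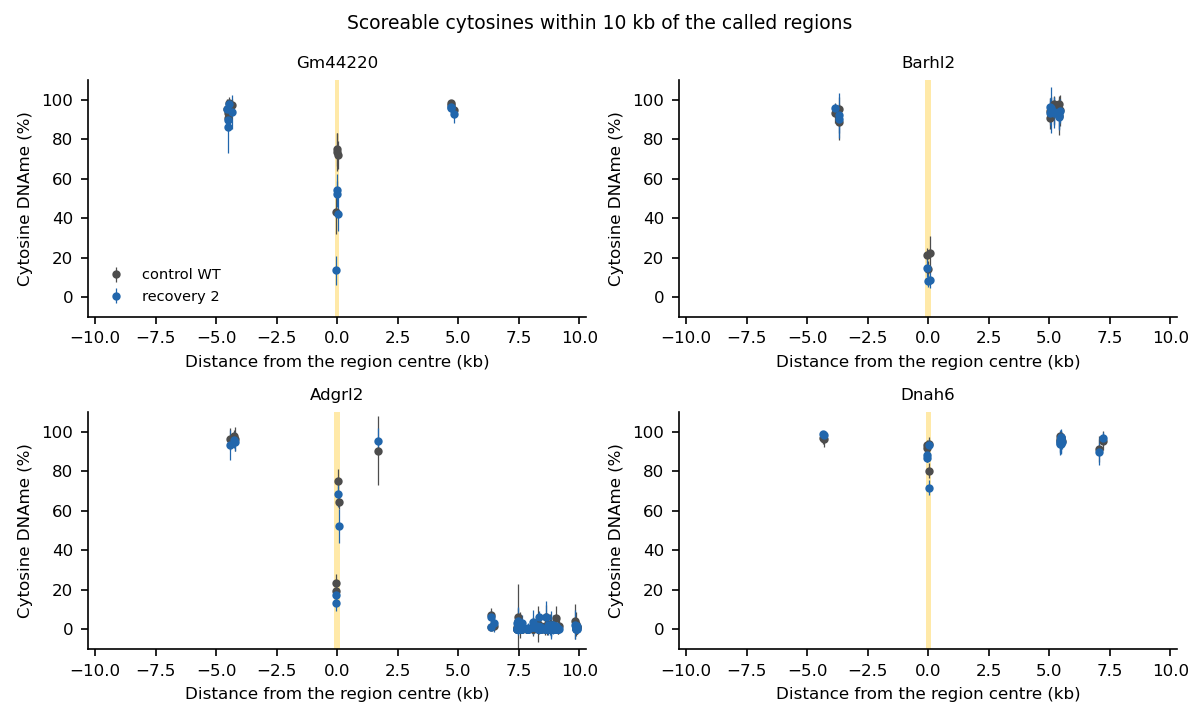
DNAme (%) of every scoreable cytosine within 10 kb of the 4 regions against the distance in kb from the region's centre. Points are group means with whiskers of 1 SD for control WT (grey) and recovery 2 (blue), and the yellow band is the region, where blue lies below grey, from 65.9% to 40.5% over the Gm44220 region.

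Single cytosines were tested as well. Of 1023708 scoreable cytosines, 6 passed (limma adjusted p below 0.05, 0.000586%), all lower in recovery 2. At an unadjusted p below 0.05 there were 47874 (4.68%). Of the 6, 3 belonged to regions above, both of them at Gm44220 and the one at Dnah6. The Dnah6 cytosine kept its call in 8 of 24 other settings and in 6 of 20 fits with 1 library left out (adjusted p up to 0.191). The Gm44220 cytosine at position 93274327 lost its call in the fit of the 2 groups alone and without control library 7 or recovery 2 library 2 (adjusted p up to 0.0598 with 1 library left out), and the one at position 93274355 in the fit of the 2 groups alone (0.0916). In an intron of Kcnip4, which encodes a calcium-binding partner of potassium channels, the cytosine of a TCGA site at chr5:49433151 ranged from 50.6% through 58.5% to 67.3% in control WT and from 36.4% through 41.6% to 52.1% in recovery 2, where 9 of 10 libraries lay below every control. Its means were 58.4% ± 5.60 (n = 10) and 42.4% ± 4.56 (n = 10), a difference of -16.03 points (SE 2.31, adjusted p = 0.00149). Smoked WT had 59.1%, recovery 1 49.7% and recovery 3 46.7% at this site. It kept its call in 23 of 24 other settings and lost it in the fit of the 2 groups alone (adjusted p = 0.381).

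The last cytosines called rested on few control libraries. In an intron of Hs3st2, a heparan sulfate sulfotransferase, the cytosine at chr7:121391992 had a value in 4 control libraries, from 0 to 20%, and was at 0 in all 8 recovery 2 libraries with a value (adjusted p = 0.0128). In an intron of Akap1, which anchors protein kinase A at mitochondria, the cytosine at chr11:88864166 had a value in 4 control libraries, from 0 to 10%, and was at 0 in the 6 recovery 2 libraries with a value (adjusted p = 0.0128). Both lay within 1 kb of the gene's start. Leaving out control library 3, 5 or 6 ended the Hs3st2 call (adjusted p up to 0.171), and leaving out control library 4 or 5 the Akap1 call (up to 0.106). Both were also lost in the fit of the 2 groups alone and without the 4 libraries that stood apart, and the Hs3st2 call on the arcsine scale. They had no value in enough control libraries when 8 of each group were asked for, and then 3 cytosines passed.

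In none of 14 classes of cytosines did the difference in mean DNAme pass the test (permutation test over libraries, adjusted p from 0.638 to 0.949). Within 1 kb of a start the means were 6.47% ± 0.623 and 6.14% ± 0.346 in control WT and recovery 2 (n = 10 each), in other exons 48.4% ± 1.798 and 47.6% ± 0.967, in introns 73.4% ± 2.24 and 72.8% ± 1.58, and between genes 62.8% ± 2.001 and 62.1% ± 1.36. On the X chromosome they were 47.3% ± 2.97 and 46.3% ± 1.36 and on the Y chromosome 48.5% ± 1.698 and 48.9% ± 1.48. Over the 558 Y cytosines with a value in all 20 libraries the difference grew from 0.345 to 1.18 points (permutation p = 0.059, adjusted p = 0.826). Cytosines at 25% to 50% in the 5 other F0 groups had 38.3% ± 1.902 and 37.4% ± 1.58, a difference of -0.878 points, and those above 75% had 93.2% ± 2.01 and 93.1% ± 1.59. The share of values at 0 was 47.8% ± 2.86 in control WT and 49.5% ± 1.43 in recovery 2 (permutation p = 0.107, adjusted p = 0.322 over 3 shares).

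No difference in the spread between libraries was detected. The mean deviation of a library from its group's median, over 41847 regions with a value in all 20 libraries, was 1.81 points ± 0.355 (n = 10) in control WT and 1.72 points ± 0.255 (n = 10) in recovery 2 (difference -0.0944, permutation p = 0.498). Of 57751 regions with a value in at least 8 libraries of each group, 32646 (56.5%) had the larger SD in control WT and 25105 in recovery 2, and the median SDs were 1.797 and 1.66 points.

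Few regions passed the test. Across 62831 regions 2605 reached an unadjusted p below 0.05 (4.15%), which is less than the threshold itself would give with no difference at all. Of them 754 were higher in recovery 2 (1.2%) and 1851 lower (2.95%), and the median change was -0.102 points. Smoked WT against the same control libraries gave 700 higher and 1755 lower at an unadjusted p below 0.05 (limma). Recovery 2 against smoked WT gave 1190 higher and 1011 lower, so the lean to lower regions was not seen there. The split by direction changed with the setting. With each library's mean shift over all regions removed, 1491 regions were higher and 1038 lower, and the median change was 0.0938 points. Without control library 1, which had the raised level in nearly unmethylated cytosines, 951 were higher and 1259 lower and the median change was -0.000636 points. Over all fits with 1 library left out, 650 to 965 were higher and 1259 to 2332 lower. Without the 4 libraries that were low at 75% to 95%, 859 were higher and 2389 lower. The 4 regions that passed the test had changes of -24.9, -9.30, -7.02 and -5.40 points without those 4 libraries, with adjusted p values of 3.09e-05, 0.0188, 0.33 and 0.0209 for Gm44220, Barhl2, Adgrl2 and Dnah6.

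Regions at intermediate DNAme kept a lower median under each of these settings. In the 2047 regions at 25% to 50% in the 5 other F0 groups, 28 were higher and 132 lower at an unadjusted p below 0.05, with a median change of -1.05 points. Together they made up 7.82% of the class, against 4.15% over all regions, where more were lower than higher as well. Leaving out 1 library at a time moved this median between -1.39 and -0.663, the latter without control library 5. The split was 36 to 114 with libraries centred (median -0.85), 29 to 108 without control library 1 (median -0.91) and 29 to 113 without the 4 libraries (median -0.842). In the 2064 regions at 50% to 75% the split was 30 to 112 (6.88% of the class), with a median of -0.601. With libraries centred it was 36 to 100 (median -0.407). The median of -0.601 became -0.384 without recovery 2 library 1 and -0.396 without control library 3. In the 23550 regions above 75% the split was 379 to 497 (3.72% of the class), with libraries centred 617 to 326, and without control library 1 471 to 410. These counts were not tested against each other.

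By size alone, 1588 of 62831 regions (2.53%) were differentially methylated regions (DMRs), that is, at least 33.3% of their cytosines and their mean changed by more than 5 percentage points. Of them 547 were higher in recovery 2 (0.871% of regions) and 1041 lower (1.66%). Library spread does not enter this rule, and 468 of the 1588 also had an unadjusted p below 0.05. Of the scoreable cytosines, 44317 had a mean over 5 points higher (4.33%) and 50869 one over 5 points lower (4.97%). DMRs made up 742 of 15748 intergenic regions (4.71%), 424 of 13325 intronic regions (3.18%), 184 of 6777 regions in other exons (2.72%) and 238 of 26981 regions within 1 kb of a start (0.882%).

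The level in the other groups went with the share of DMRs. They made up 444 of 2047 regions at 25% to 50% (21.7%) and 376 of 2064 at 50% to 75% (18.2%), against 337 of 35170 below 25% (0.958%) and 431 of 23550 above 75% (1.83%). The libraries also varied most in the middle. The median SD between control libraries was 7.50 points at 25% to 50% and 6.75 points at 50% to 75%, but 1.07 points below 25% and 2.53 points above 75%. DMRs at 25% to 50% were lower in 315 cases and higher in 129, and above 75% in 221 and 210. The share fell with CpG density, from 5.40% of regions with an observed over expected CpG ratio below 0.4 to 1.45% of those at 0.8 and above. Regions of at most 4 cytosines were DMRs in 4.08% and longer ones in 1.66%. Soft-masked repeats covered over 50% of 4886 regions, of which 286 were DMRs (5.85%), 135 higher and 151 lower. The sampling of a region's cytosines and reads differs along each of these scales, and its part in the shares was not tested.

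**Figure D4:**
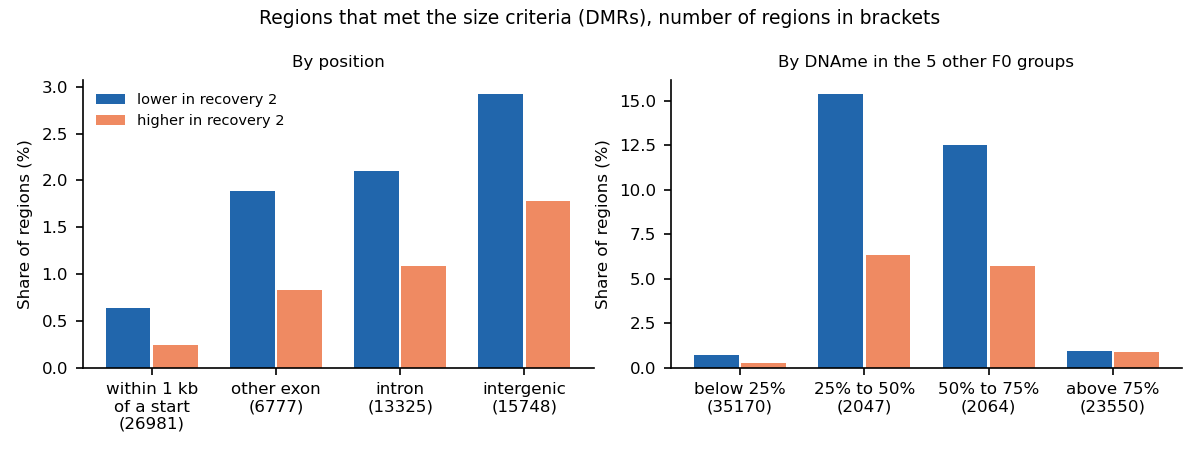
Share of regions (%) that were DMRs by size, lower (blue) or higher (orange) in recovery 2 than in control WT, by position against annotated genes and by mean DNAme in the 5 F0 groups that did not enter the comparison. The number of regions in each class stands in brackets, and the bars are tallest at 25% to 50%, where 315 regions were lower and 129 higher of 2047.

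Among the DMRs with a value in at least 8 libraries of each group, those with the smallest p included several inside or beside genes, none of which passed the adjustment. Near Gm49466, a predicted gene, the region chr15:86928497-86928574 had 84.7% ± 5.18 in control WT and 70.4% ± 4.99 in recovery 2 (n = 10 each, -14.4 points, limma adjusted p = 0.134), with 8 of 10 recovery 2 libraries below every control. An intron of Hpn, the cell surface protease hepsin, had 80.8% ± 7.15 and 69.4% ± 6.98 (n = 10 each), and an intron of Rbfox2, a splicing factor, 31.0% ± 4.28 and 25.2% ± 2.81. An intron of Cdh4, the adhesion molecule R-cadherin, had 71.1% ± 3.87 and 64.8% ± 3.92, and an intron of E130308A19Rik 72.8% ± 5.39 and 62.1% ± 5.74, with 8 of 10 recovery 2 libraries below every control. A coding exon of Tbc1d10b, which acts on Rab GTPases, had 98.0% ± 2.59 (n = 8) and 90.4% ± 7.89 (n = 10). Regions near the predicted genes Gm23905, Gm35520, AC162923.1 and AC142100.3 differed by -12.8, -8.76, -5.90 and -7.57 points. Of the 15 DMRs with the smallest p, which include the first 3 regions described above, 2 were higher in recovery 2. Near Gm14979 on the X chromosome the means were 64.1% ± 8.13 and 74.5% ± 4.52 (n = 10 each, 10.4 points), and in an exon of Gm10741 they were 64.4% ± 5.60 and 71.4% ± 4.04 (6.98 points). Their adjusted p values were 0.68 and 0.804, and the libraries of both groups overlapped in each.

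Promoters of gene groups that bear on smoke, oxidative stress and sperm were then described. Of all 26981 regions within 1 kb of a start, 0 passed the adjustment (limma) and 1067 reached an unadjusted p below 0.05 (3.95%), 250 higher and 817 lower. With control library 1 left out the split was 338 to 449, and with any 1 library left out 197 to 354 were higher and 449 to 1171 lower. Centring the libraries turned the split over all 62831 regions, to 1491 higher and 1038 lower. The centred split of promoter regions is not given here. The median of promoter regions was 0.842% in control WT and 0.728% in recovery 2. In each of the 10 lists 0 regions passed the adjustment, and the counts below are at an unadjusted p below 0.05.

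NRF2, the transcription factor encoded by Nfe2l2, is held back by KEAP1 until oxidants release it, and it then switches on antioxidant and detoxification genes. Of 64 promoter regions at 38 of 58 genes, 3 were higher and 5 lower (12.5%), with a median change of -0.0429 points against -0.094 over all promoter regions. Leaving out 1 library at a time gave 1 to 4 higher and 3 to 5 lower. Without control library 1 the counts were 2 and 3 and both medians turned, to 0.0815 and 0.00878 points, and with libraries centred they were 0.195 and 0.103 points. All 8 had means below 3% in both groups. At Prdx2, a peroxide-reducing peroxiredoxin, the region chr8:84969437-84969888, which also overlaps the start of Rnaseh2a, ranged from 0.281% to 1.90% in control WT and from 0 to 0.705% in recovery 2. Its means were 1.05% ± 0.502 and 0.257% ± 0.243 (n = 10 each, unadjusted p = 0.00025, limma adjusted p = 0.755). At Abcc4, an export pump for drugs and conjugates, they were 1.05% ± 1.22 and 0.277% ± 0.25 (n = 10 each), with 1 control library reaching 4.18%. The means at 1 region of Keap1 itself were 0.601% and 1.42%, and those at Txnrd1, a thioredoxin reductase, 0.133% and 1.38%.

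The aryl hydrocarbon receptor AHR binds compounds of tobacco smoke and induces CYP1A1, and AHRR represses it. Of 44 promoter regions at 21 of 26 genes of this pathway and of smoking-associated loci, 0 were higher and 3 lower (6.82%). With any 1 library left out, 0 or 1 were higher and 1 to 3 lower, with 1 lower without control library 4 or 7. At Ahr the means were 0.886% ± 1.23 and 0.185% ± 0.23 (n = 10 each, unadjusted p = 0.0166), at Ahrr 1.67% and 0.399%, and at Cyp1a1 1.62% ± 1.93 and 0.13% ± 0.349. The ranges overlapped at Ahr and Cyp1a1, where single control libraries reached 3.85% and 6.25%, and the unadjusted p was 0.111 at Ahr without control library 6 and 0.131 at Cyp1a1 without control library 7.

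Within 1 kb of a start of genes listed for maternal imprints, 1 of 40 regions was higher and 2 lower (7.5%). With 1 library left out 0 or 1 were higher and 1 to 3 lower. In the coding exon of Mcts2, an imprinted gene inside H13, the means were 3.72% ± 3.34 and 0.907% ± 0.749 (n = 10 each, limma unadjusted p = 0.000691). The region chr17:12751283-12751364 lies in an intron, 483 bp from a start of Igf2r, and also inside Airn. Its means were 12.8% ± 4.39 and 8.99% ± 2.82 (n = 10 each, unadjusted p = 0.0434, below 0.05 in 9 of 20 limma fits with 1 library left out). Whether this region carries a maternal imprint was not tested. At the 39 regions of germline gene promoters, 0 were higher and 2 lower (5.13%), and 0 or 1 were higher and 1 to 3 lower with 1 library left out. Tex19.1, which keeps transposons silent in germ cells, averaged 13.1% ± 3.13 (n = 8) in control WT against 9.15% ± 1.89 (n = 10) in recovery 2 (unadjusted p = 0.00946), with 6 of 10 recovery 2 libraries below every control, and Mei1, a meiosis gene, 92.4% ± 3.06 and 87.7% ± 7.24 (n = 10 each). Of 14 regions at 8 of 25 genes for protamines and the sperm head, 0 were higher and 2 lower (14.3%). With 1 library left out 0 to 3 were lower, and without control library 1 neither count held any region. Zpbp2, a zona pellucida binding protein, had 1.75% ± 2.56 and 0.365% ± 0.538, and Tssk6, a kinase needed for chromatin packing in sperm, 1.55% ± 1.65 and 0.554% ± 0.533 (n = 10 each). The control median at Zpbp2 was 0.496% and the highest control library 7.77%. The unadjusted p (limma) rose to 0.155 at Zpbp2 without control library 6, to 0.148 at Tssk6 without control library 7 and to 0.153 at Mei1 without recovery 2 library 8.

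Of the enzymes that write, read and erase DNAme, 52 regions at 22 of 29 genes held 0 higher and 2 lower (3.85%). The fits with 1 library left out gave 0 or 1 higher and 1 to 4 lower, with 1 lower without control library 6 and 4 lower without control library 2, 3 or 5 or recovery 2 library 1. An intronic region near the start of Tet1, which oxidises methylcytosine, ranged from 89.5% through 91.4% to 96.6% in control WT and from 82.6% through 87.6% to 92.95% in recovery 2. Its means were 91.6% ± 2.17 and 87.5% ± 3.20 (n = 10 each, limma unadjusted p = 0.0102), and 8 of 10 recovery 2 libraries lay below every control. The mean was below that of control WT in all other groups too. Smoked WT had 87.0%, recovery 1 89.6%, recovery 3 87.6%, never-exposed control Nrf2-/- 88.0% and smoked Nrf2-/- 88.2%. Soft-masked repeats covered 100% of the region. Among 36 regions of base excision and strand break repair genes 0 were higher and 1 lower (2.78%), and 1 or 2 were lower with 1 library left out. The Xrcc6 promoter, of the end-joining protein Ku70, had 1.60% ± 3.59 (n = 10) and 0.145% ± 0.271 (n = 8) with an unadjusted p of 0.0696. Its control median was 0.287%, control library 1 was at 11.7%, and the unadjusted p (limma) without that library was 0.391.

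Homeobox and other developmental transcription factors had 382 regions at 116 of 125 genes, of which 7 were higher and 9 lower (4.19%). When 1 library was left out, the counts ran over 3 to 7 higher and 3 to 16 lower, from 5 higher and 3 lower without control library 1 to 6 higher and 16 lower without control library 5. A region near Tbx2 had 2.12% ± 2.19 (n = 9) and 0.755% ± 0.955 (n = 10), and one near Sox10 92.3% ± 2.80 and 95.4% ± 1.47 (n = 10 each). Of 101 regions of neurotransmitter, stress axis and neurotrophin genes, 2 were higher and 4 lower (5.94%), and 1 to 3 were higher and 2 to 5 lower with 1 library left out. Grin2d, a subunit of the NMDA receptor, had 1.57% ± 2.46 (n = 8) and 0.0986% ± 0.223 (n = 10), with a control median of 0.448% and 1 control library at 6.86%. Bdnf, a neurotrophin, had 0.868% ± 0.675 and 1.99% ± 1.26 (n = 10 each), with 4 of 10 recovery 2 libraries above every control. The unadjusted p (limma) was 0.076 at Bdnf without recovery 2 library 4 and 0.0689 at the region near Tbx2 without control library 1. Of 35 regions of the ADAMTS proteases, 0 were higher and 1 lower (2.86%), at Adamts20 with 1.38% ± 1.69 (n = 8) and 0.31% ± 0.276 (n = 9). The control median there was 0.613% and control library 1 was at 4.54%. The Adamts17 promoter had 0.916% ± 1.18 and 0.235% ± 0.291 (n = 10 each, unadjusted p = 0.147). Over the 10 lists the median change ran from -0.457 points in the sperm head list to 0.0394 points in the ADAMTS list. With 1 library left out the sperm head median ran from -0.695 to -0.0137 points, the latter without control library 1, and the ADAMTS median from -0.0361 points without recovery 2 library 10 to 0.0979 points without recovery 2 library 2. The medians of the NRF2, germline gene, DNAme enzyme and homeobox lists also changed sign, with highest values of 0.0815, 0.0508, 0.0389 and 0.0306 points. Centring the libraries also turned the medians of the NRF2 list and of all promoter regions, and centred medians of the other lists are not given here.

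**Figure D5:**
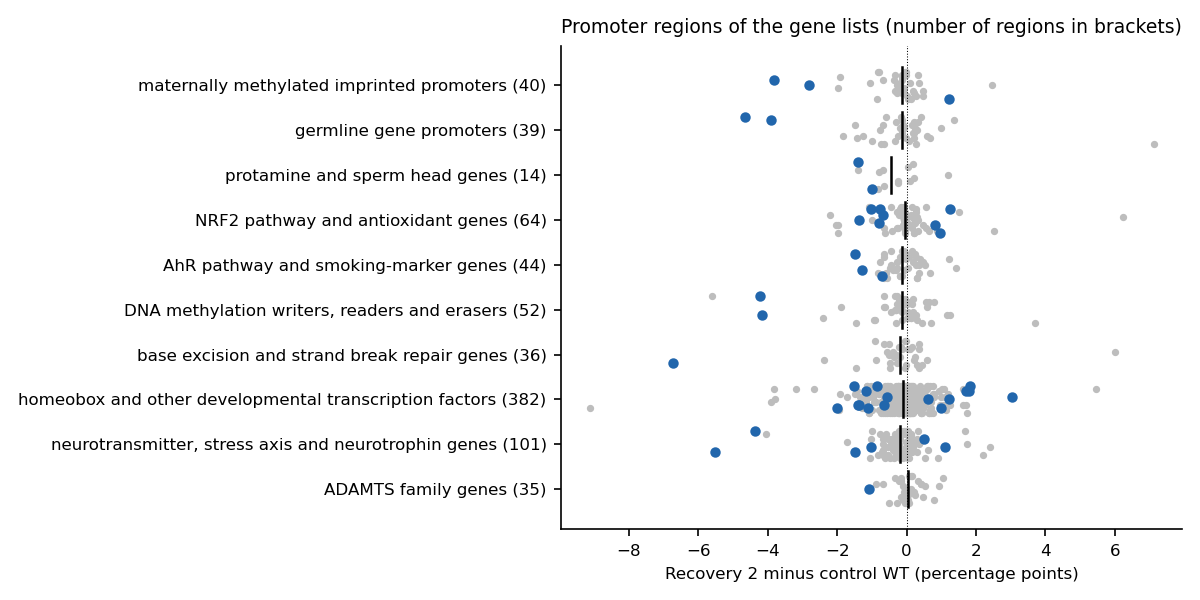
Difference of recovery 2 minus control WT (percentage points) for each promoter region of the 10 gene lists, with the number of regions in brackets. Grey points are regions, blue points those with an unadjusted p below 0.05 (limma), and the black line is the list's median, between -0.457 and 0.0394 points.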

How the data were processed

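RRBS libraries were sequenced as single reads, and the authors aligned them to mm10 (GRCm38) with Bismark. The deposited tables hold, for each group, the percent methylation per cytosine and library on both strands of CpG sites, without read counts, so depth is unknown. The study's read minimum could not be applied. All value columns were mapped to groups by the table and 0 were left unused. The columns carry facility numbers only.

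Scoreable cytosines (a value in at least 4 libraries of each of 7 F0 groups) were joined up to 100 bp apart into regions of at least 3 cytosines and over 50 bp. A library's region value is the mean deviation of its cytosines from their centres, added to the region's mean, where at least 50% of cytosines had a value. The centre of a cytosine is the mean of its 7 group means. limma 3.58.1 (R 4.3.3) fitted group means over all 7 groups with Benjamini-Hochberg adjustment across all regions or cytosines. The 7 groups, with both Nrf2-/- groups among them, shared 1 estimate of the spread. Values per library were compared by two-sided permutation tests (scipy 1.17.1). Since adjusting can take a region of values near 0 slightly below 0, or one near 100% slightly above it, such values count as measured. Positions come from GENCODE M21. Regions and cytosines past the threshold were named. So were the 15 DMRs of smallest p among those with a value in at least 8 libraries of each group. Also named were 2 promoter regions a list. The regions at Keap1, Txnrd1 and Ahrr were named outside this rule, with their means only. The region whose groups do not overlap was an addition made after the values were seen. A region takes the gene it overlaps, or else the gene with the nearest start. The comparison, members and lists were chosen with earlier results of these data known. The fits were tested on simulated data. Some regions that the naming rule picks are not reported here. The columns of the F1 tables were not analysed here.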

Additional observations from a re-analysis of the deposited data

Results flagged for a closer look

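The mean DNAme of control library 1 over cytosines below 5% in the 5 other F0 groups, 1.89%, lay farther from the other control libraries than Dixon's limit for 10 values allows. In the Enpp4 region, control library 3 lay apart in the same way, at 0.714%. In all, 20 tests of this kind were made, and each is flagged by chance in about 1 of 20 cases. The limit assumes a normal spread, which was not checked for the values near 0 in the Enpp4 region. In that region, recovery 2 differed from smoked WT by -2.42 points (limma adjusted p = 0.0375), so that the change from control WT differed between these groups. In the Gm44220 region the same difference was -23.98 points (adjusted p = 2.37e-06).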

How the results depend on the processing

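The number of regions that passed the test, 4, was 2 with joining up to 300 bp, with cytosines scoreable in the 2 groups only, with libraries centred, with the 2 groups alone in the fit, on the arcsine scale, with a trended robust prior and with the number of positions as a covariate, 1 with joining up to 50 bp, and 9 with array weights. With joining up to 50 bp, the cytosines at Barhl2, Adgrl2 and Dnah6 lay too far apart to form these regions, which were thus not tested there. Leaving out 1 library at a time gave 2 to 6. The DMR count of 1588 was 178 with a change over 10 points, 3642 with joining up to 300 bp, 733 with joining up to 50 bp, 896 with 8 libraries of each group, 3075 with cytosines scoreable in the 2 groups only, and 1576 to 1809 with 1 library left out. The count of cytosines, 6, was 3 with 8 libraries of each group, 0 in the fit of the 2 groups alone (24859 at an unadjusted p below 0.05, limma), 4 to 13 with 1 library left out and, in a setting chosen after seeing the data, 32 without the 4 libraries that stood apart. Against smoked WT, 1 region passed in the fit of the 2 groups alone, and 1 to 2 with 1 library left out. Mean DNAme differed by -1.32 to -0.447 points and the spread by -0.166 to 0.00413 points with 1 library left out, and neither passed the test. At CCGG sites the difference of 0.189 points was -0.143, and on the X chromosome that of -1.004 points was 0.0122, over cytosines with a value in all 20 libraries. The causes were not tested.

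Leaving out 1 library ended the Adgrl2 call for control libraries 3, 6, 8, 9 and 10 and recovery 2 libraries 1, 2, 6, 7, 8, 9 and 10, and the Dnah6 call for control libraries 1, 2, 3, 4, 6, 7 and 9 and recovery 2 libraries 1, 2, 3, 4, 6, 7, 8, 9 and 10. The columns carry facility numbers that match no replicate number in the labels, so libraries could not be paired by label. A replicate block by runs of 5 facility numbers, added after seeing the data, left 1 region (3 without the block in the fit of the 5 WT groups). Deviations of same-run libraries correlated over 0.1 in 1 of 10 pairs. Without read counts, no value has a counting error here.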
